A study of Mus musculus with 4 samples.

Results

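The 10 genes described here are markers of the dividing cell, namely Mki67, Top2a, Cenpf, Birc5, Ube2c, Pcna, Mcm2, Mcm5, Cdk1 and H2afz. They were taken by symbol from the 31053 features of the count tables, where each symbol had 1 entry. A cell was called cycling when it held at least 1 UMI of at least 3 of Mki67, Top2a, Cenpf, Birc5 and Ube2c, called the 5 genes below. A UMI (unique molecular identifier) marks 1 captured mRNA molecule.

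Single-cell RNA-seq with 10× Genomics chemistry was made from the brains of male mice aged 8 weeks by the labels. The groups were sham surgery, which differed from the model only in that the artery was not blocked, and 1, 3 and 7 days after transient middle cerebral artery occlusion (tMCAO), in which a filament blocks the artery and is then withdrawn so that blood returns. The hemisphere on the operated side was digested with papain, myelin was removed on Percoll, and all cells left in the suspension were loaded without a sort, so that every group shares these steps. Each group had 1 library, the number of mice behind a library is not stated in the sources used here, and the day of the sham library is given as day 7 by the text recorded with the data. With 1 library per group no test between groups was possible. The exact 95% intervals given with values above 0 hold the error of counting and nothing else, and cells are not replicates.

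Before a cell divides it must copy its DNA. MCM proteins are loaded on replication origins and open the double helix, and the ring formed by PCNA then holds the DNA polymerases on the template. Cyclin-dependent kinase 1 drives the cell into mitosis, where chromosomes are condensed and disentangled, attached to the spindle and parted, and the anaphase-promoting complex then marks cyclin B for destruction. In the adult brain division is normally limited to neural stem cells and their neuroblast progeny, to oligodendrocyte progenitors and to slow renewal of microglia and vessel cells. After stroke, microglia are known for dividing near the lesion.

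Transcription of mitotic genes is known to pass through CHR elements and CCAAT boxes, and that of replication genes through E2F sites. The promoters of 4 of the genes are therefore printed, to show how the mitotic genes Top2a and Ube2c, the kinase gene Cdk1 and the replication gene Mcm5 differ in these letters. The sequences are from RefSeq, build GRCm38.p6, and run 5′ to 3′ along the gene's strand from 250 bases before the start of the gene to 50 bases from it onward. Capitals mark every match, on either strand, to the CHR letters TTTGAA, the CCAAT box letters CCAAT, and the E2F letters TTTCGCGC or TTTGGCGC.
Top2a (chr11:99024140-99024439, minus strand): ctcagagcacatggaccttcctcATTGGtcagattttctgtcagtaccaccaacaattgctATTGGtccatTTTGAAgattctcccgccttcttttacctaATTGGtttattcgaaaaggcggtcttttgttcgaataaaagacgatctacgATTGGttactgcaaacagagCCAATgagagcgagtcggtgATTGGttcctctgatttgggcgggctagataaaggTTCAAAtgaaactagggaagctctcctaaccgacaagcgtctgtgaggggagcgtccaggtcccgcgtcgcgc
Ube2c (chr2:164769679-164769978, plus strand): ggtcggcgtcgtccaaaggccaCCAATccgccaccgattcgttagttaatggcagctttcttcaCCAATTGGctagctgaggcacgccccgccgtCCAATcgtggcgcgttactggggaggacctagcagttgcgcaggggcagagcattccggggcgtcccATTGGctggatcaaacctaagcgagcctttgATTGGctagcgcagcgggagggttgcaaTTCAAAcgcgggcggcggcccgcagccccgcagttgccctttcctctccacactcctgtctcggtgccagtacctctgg
Cdk1 (chr10:69352863-69353162, minus strand): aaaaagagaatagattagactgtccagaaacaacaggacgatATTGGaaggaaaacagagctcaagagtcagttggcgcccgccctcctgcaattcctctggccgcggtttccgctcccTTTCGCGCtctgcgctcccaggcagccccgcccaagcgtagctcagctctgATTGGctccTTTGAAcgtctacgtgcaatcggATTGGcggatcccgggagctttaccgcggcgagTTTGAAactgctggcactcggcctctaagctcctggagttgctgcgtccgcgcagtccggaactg
Mcm5 (chr8:75109259-75109558, plus strand): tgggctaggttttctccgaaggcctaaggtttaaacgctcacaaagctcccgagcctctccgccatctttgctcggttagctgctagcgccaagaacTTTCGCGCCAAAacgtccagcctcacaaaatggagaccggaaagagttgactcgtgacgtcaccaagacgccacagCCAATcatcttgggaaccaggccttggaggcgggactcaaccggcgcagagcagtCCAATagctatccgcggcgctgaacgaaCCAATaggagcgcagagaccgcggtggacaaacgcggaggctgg
Top2a held 2 CHR matches and 6 CCAAT matches. Ube2c held 1 CHR match and 6 CCAAT matches. Cdk1 held 2 CHR, 3 CCAAT and 1 E2F match, so that both kinds of letters stood in its promoter. Mcm5 held 3 CCAAT matches and 2 E2F matches that overlap each other, from 153 to 146 and from 149 to 142 bases before the start, and no CHR match in this window. Of the other replication members, Mcm2 held 1 CHR and 1 CCAAT match and Pcna 1 CCAAT match, and neither held E2F letters. Among all 10 promoters, 6 held CHR letters, 9 a CCAAT box and 2 an E2F match. Among 32817 mouse promoters of the same length, the shares were 17.9%, 37.4% and 0.814%. The promoter of Birc5 had none of these letters in the window. Of a list of 32 other mitosis genes, 28 had a promoter in the table, of which 21 (75.0%) held CHR letters and 0 E2F letters. Of a list of 25 other replication genes, 21 had one, of which 2 (9.52%) held CHR letters and 7 (33.3%) E2F letters. A match describes the letters and is not a bound site.

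By the GENCODE vM21 annotation of GRCm38, Mki67 lies at chr7:135689784-135716361, Top2a at chr11:98992943-99024189, Cenpf at chr1:189640606-189688086, Birc5 at chr11:117849251-117855743 and Ube2c at chr2:164769898-164778822. Pcna lies at chr2:132249162-132253314, Mcm2 at chr6:88883474-88898780, Mcm5 at chr8:75109569-75128439, Cdk1 at chr10:69335146-69352938 and H2afz at chr3:137864487-137866922. Ube2c overlaps Tnnc2 on the other strand, which had 22 UMIs in all cells against 6695 of Ube2c. The pseudogene Pcna-ps2 had 89 UMIs against 11736 of Pcna, so that some UMIs of either may belong to the other. The remaining totals over all deposited cells were 2794 UMIs of Mki67, 4261 of Top2a, 3372 of Cenpf, 5451 of Birc5, 2350 of Mcm2, 2104 of Mcm5, 3406 of Cdk1 and 158656 of H2afz.

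The libraries held 11744 sham cells and 17780, 11983 and 17922 cells on days 1, 3 and 7, with 69392755 to 104023002 UMIs per library. The filter of the study's methods asks for 200 to 3000 genes per cell and a mitochondrial share of UMIs up to 10%, which left 44360 of 59429 cells. This filter bears directly on the genes described here. Of the 561 cycling cells found without an upper gene limit, 404 (72.0%) had over 3000 genes. Cells within the limit held 46.0% of all UMIs of the cells without it, but 17.8% to 19.5% of the UMIs of the 5 genes and 18.6% of those of Cdk1. For Pcna, Mcm2, Mcm5 and H2afz the shares were 46.2%, 41.9%, 36.1% and 39.1%. The cycling shares and the main ratios are therefore given under the filter of the methods and without its upper limit, and elsewhere the setting is named. The day 3 library stood apart in 1 respect, as 187 of its 9378 filtered cells held markers of 5 or more classes of cell, against 0 to 4 cells of the other libraries. Between libraries 353 cell barcodes were found in 2 libraries and 3 in 3 libraries, and 7 of the 561 cycling cells carried such a barcode.

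Cycling cells were most frequent on day 1. With the filter of the methods, 5 of 7562 sham cells cycled (0.0661%, interval 0.0215% to 0.154%) and 120 of 13376 cells of day 1 (0.897%, 0.744% to 1.07%). On day 3 the number was 17 of 9378 (0.181%, 0.106% to 0.290%), and on day 7 it was 15 of 14044 (0.107%, 0.0598% to 0.176%). The interval of day 1 lay above those of the other 3 libraries, and the sham and day 7 intervals overlapped. Without the upper gene limit the shares were 0.288% in the sham library (30 cells, 0.194% to 0.411%), 2.49% on day 1 (419 cells, 2.26% to 2.74%), 0.661% on day 3 (75 cells, 0.520% to 0.828%) and 0.222% on day 7 (37 cells, 0.156% to 0.305%). The order of day 1, day 3 and the rest was the same, whereas sham and day 7 changed places, with intervals that overlapped under either filter. Day 3 was not above day 7 in each setting, since with the filter of the methods it had 0.0594% against 0.0670% when every cell was thinned to 1000 UMIs. Among cells with over 3000 genes alone, 8.66% cycled on day 1 against 0.875% in the sham library, 2.95% on day 3 and 0.831% on day 7.

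**Figure D1:**
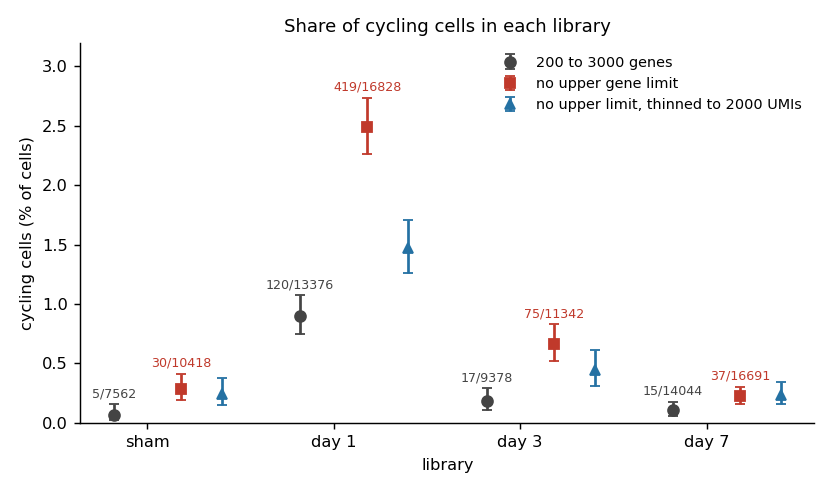
Cycling cells (vertical axis, percent of all cells) in each of the 4 libraries (horizontal axis), with exact 95% intervals as bars and cycling over all cells as text. Circles stand for the filter of 200 to 3000 genes, squares for no upper gene limit and triangles for the latter thinned to 2000 UMIs per cell. Day 1 is highest under each setting, at 0.897%, 2.49% and 1.47%.

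Depth bears on these shares, because a deep cell has more chances to show 3 of 5 genes. Cycling cells had a median of 14485 UMIs on day 1 and other cells 3712, without the upper limit. In the other libraries cycling cells had medians of 13343.5 (sham), 14073 (day 3) and 9488 UMIs (day 7) against 5627.5, 3795 and 3205.5. Why cycling cells were deeper was not tested. With every cell thinned to 2000 UMIs and shallower cells left out, 20 of 8202 sham cells still cycled (0.244%), 173 of 11762 on day 1 (1.47%, 1.26% to 1.71%), 36 of 8094 on day 3 (0.445%) and 26 of 10965 on day 7 (0.237%). Among the cells kept, the interval of day 1 lay above those of the other libraries. The numbers of cells left out differed, at 2216, 5066, 3248 and 5726 in the same order.

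The rule has a threshold, and cells lay near it in each library. Under the filter of the methods, exactly 2 of the 5 genes were found in 4 sham cells, 107 cells of day 1, 20 of day 3 and 11 of day 7. Those with exactly 3 numbered 3, 40, 7 and 6, of 5, 120, 17 and 15 cycling cells. Without the upper limit most cycling cells held all 5 genes, namely 23 of 30 in the sham library, 246 of 419 on day 1, 38 of 75 on day 3 and 26 of 37 on day 7.

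The levels of the genes, summed over all cells of a library and given per 1000000 UMIs (CPM, counts per this number), were highest on day 1 for each of the 10 genes. Ratios are to the sham library. With the filter of the methods the 5 genes together had 7.45 CPM in sham, 63.8 on day 1, 14.6 on day 3 and 11.6 on day 7. The ratios were 8.56 (7.49 to 9.83), 1.96 (1.67 to 2.30) and 1.56 (1.34 to 1.83). They were 5.96, 1.89 and 1.17 without the upper limit. With the limit but without erythrocyte-like cells they were 13.3 (11.3 to 15.8), 2.47 (2.04 to 3.01) and 2.31 (1.92 to 2.80).

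Among the replication genes, Pcna had 24.3 CPM in sham, 41.4 on day 1, 37.5 on day 3 and 31.8 on day 7, with ratios of 1.70 (1.56 to 1.86), 1.54 and 1.31. Mcm2, a subunit of the MCM helicase, stood at 4.69 CPM and then 8.15, 5.60 and 5.18 CPM. Its ratio was 1.74 (1.43 to 2.12) on day 1, while the intervals of day 3 (0.957 to 1.49) and day 7 (0.895 to 1.37) held 1. Mcm5, another subunit of that helicase, stood at 4.53 CPM and then 7.31, 4.28 and 3.07 CPM. The ratio of Mcm5 was 1.62 (1.32 to 1.98) on day 1, and on day 7 it lay below 1 (0.679, 0.533 to 0.865; 0.851 without the upper limit). Thus Pcna stood above sham on each day, Mcm2 on day 1 (and, without the upper limit, also on days 3 and 7 at 1.28 and 1.19), and Mcm5 above sham on day 1 and below it on day 7.

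Cdk1, the kinase of mitotic entry, had 1.16 CPM in sham, 10.0 on day 1, 2.57 on day 3 and 1.05 on day 7. Ratios were 8.68 (6.18 to 12.6), 2.23 (1.49 to 3.39) and 0.912 (0.578 to 1.45), so that it was high on day 1, lower on day 3 and near sham on day 7.

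Of the genes of chromatin, H2afz encodes the histone variant H2A.Z and is expressed in resting cells too. H2afz stood at 325, 532, 375 and 309 CPM from sham to day 7, with ratios of 1.63, 1.15 and 0.951. Mki67 encodes the Ki-67 protein that coats mitotic chromosomes. It had 34, 345, 49 and 82 UMIs, or 1.09, 7.62, 1.47 and 1.84 CPM. With erythrocyte-like cells left out, its UMIs in the sham library were 21, and its ratios to sham were 11.2 (7.20 to 18.3), 1.98 (1.16 to 3.51) and 2.70 (1.66 to 4.59) in place of 6.99, 1.34 and 1.68. The interval of the 1.34 of day 3 (0.850 to 2.15) held 1. As means over cells the ratios of Mki67 were 3.54, 0.616 and 1.28, so that day 3 lay on the other side of 1. Without the upper limit, with all classes kept, they were 5.62, 1.59 and 1.44. Top2a, the topoisomerase that untangles DNA, stood at 0.899, 11.1, 2.66 and 2.96 CPM, with ratios of 12.3 (8.42 to 18.7), 2.96 and 3.29. Day 1 was the highest library for each of these genes.

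Of the genes of mitosis, Birc5 had the highest ratio of the 10 on day 1. Birc5 encodes survivin, a member of the chromosomal passenger complex, and stood at 0.610, 18.0, 2.39 and 1.48 CPM, with a day 1 ratio of 29.5 (18.8 to 49.3). This ratio rests on 19 sham UMIs and was 9.91 (8.86 to 11.1) without the upper limit, where the sham library had 332. On day 7 the ratio of Birc5 was 2.43 (1.44 to 4.28) with the upper limit and 0.808 (0.686 to 0.951) without it, so that its direction turned. Cenpf, a protein of the kinetochore, stood at 1.35, 9.61, 1.83 and 2.29 CPM. Its day 1 ratio was 7.13 (5.19 to 10.0), and 3.24 without the upper limit. Ube2c, the ubiquitin-conjugating enzyme of the anaphase-promoting complex, stood at 3.50, 17.5, 6.26 and 3.07 CPM, with ratios of 4.99 (4.08 to 6.15), 1.79 and 0.878. The direction of day 7 turned when erythrocyte-like cells, which held most sham UMIs of Ube2c, were left out of all libraries, an alternative added after the data were seen. Ube2c then stood at 1.49, 17.5, 4.54 and 2.54 CPM, with ratios of 11.7 (8.68 to 16.1), 3.04 (2.17 to 4.33) and 1.7 (1.2 to 2.45).

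**Figure D2:**
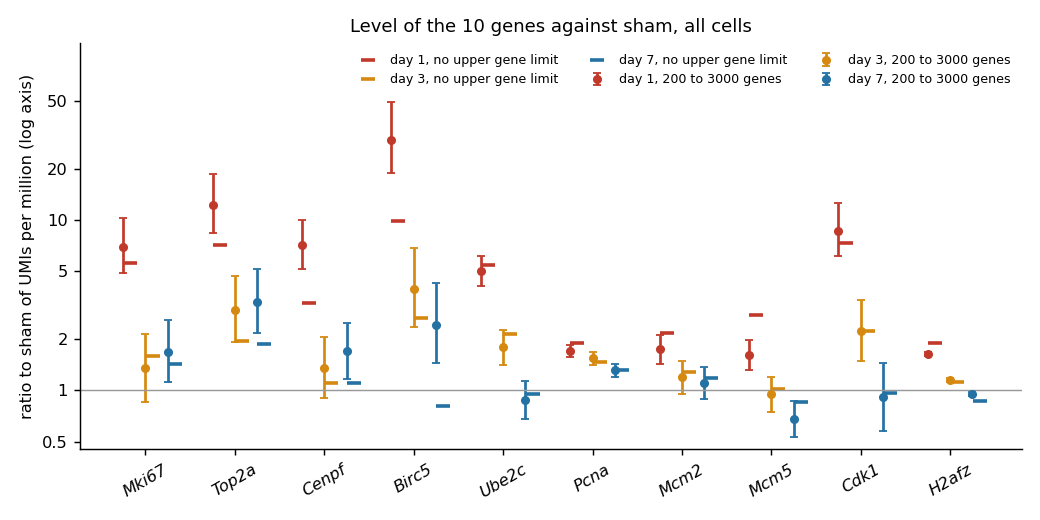
The ratio to sham (vertical log axis) of the CPM of each of the 10 genes (horizontal axis), over all cells, in red for day 1, orange for day 3 and blue for day 7. Points with bars are ratios and exact 95% intervals under the filter of 200 to 3000 genes, and dashes are ratios without the upper gene limit. The day 1 ratios lie between 1.62 (Mcm5) and 29.5 (Birc5).

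Beside sham, 14.8% of the 16473 genes tested were at least 2-fold higher on day 1, 5.14% of 15929 on day 3 and 5.07% of 16176 on day 7. Of the 10 genes 6 passed 2-fold on day 1, namely the 5 genes and Cdk1. On day 3 the 3 were Top2a, Birc5 and Cdk1, and on day 7 the 2 were Top2a and Birc5. Top2a lost these calls without the upper limit, at 1.94 on day 3 and 1.88 on day 7, with 7.15 on day 1. At that setting Mcm2 (2.18) and Mcm5 (2.78) also passed on day 1, Ube2c passed on day 3 (2.15), and 0 of the 10 genes passed on day 7. With the filter of the methods and erythrocyte-like cells left out, Mki67 also passed on day 7 (2.70) and Ube2c on day 3 (3.04). The shares of all genes given above are for the filter of the methods with all classes kept. Counts at other settings, here and below, have no such share beside them. Genes of the same pathway showed a like course. In the list of 32 mitosis genes, 28 passed 2-fold on day 1 (median log2 ratio 1.92, against 0.05 over all genes tested), 8 of 31 on day 3 and 9 of 31 on day 7, and 0 were 2-fold lower on any day, against 4.15%, 3.33% and 3.67% of all genes on days 1, 3 and 7. The counts of days 3 and 7 were 3 and 0 without the upper limit, 0 and 1 with at least 100 UMIs, and 0 and 0 with 1 CPM added and no filter on low counts. In the list of 25 replication genes, 7 passed 2-fold on day 1 (median log2 ratio 0.36), 4 on day 3 and 1 on day 7. Without the upper limit 11 passed on day 1 and 0 on day 7, and with at least 100 UMIs 0 passed on day 3.

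The genes of these lists with the most UMIs in cycling cells are named here. Of the mitosis list, Cks1b, which binds cyclin-dependent kinases, had 5.10 CPM in sham and 17.5 on day 1 (ratio 3.44). The related Cks2 had a day 1 ratio of 3.28, and Cenpa, the histone H3 variant of centromeres, one of 2.12. Of the replication list, Rrm2, a subunit of the enzyme that makes deoxynucleotides, had a ratio of 5.21 (3.50 to 8.03) from 28 sham UMIs. Tyms, which makes thymidylate, and Dut, which removes dUTP, had ratios of 1.43 and 1.25. Thus 1 of these 3 replication genes passed 2-fold and all of the 3 mitosis genes did, where 14.8% of all genes tested did. The genes were chosen by their UMIs in the filtered cycling cells, and 120 of these 157 cells were from day 1. The choice favours genes high on day 1, so this count is a description and no support for a rise.

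Genes that start or halt the cycle were counted in the same way. Of 10 G1 cyclins and kinases, 2 passed 2-fold on day 1, where 14.8% of all genes did, and Ccnd1, Ccnd2 and Cdk4, the most abundant of the list in cycling cells, had ratios of 1.19, 0.720 and 0.963. Of 13 brakes of the cycle, 0 were 2-fold higher and 1 was 2-fold lower on day 1, where 4.15% of all genes were. The CDK inhibitor Cdkn1a had a ratio of 0.940, the antiproliferative gene Btg1 one of 1.06 and its relative Btg2 one of 0.638.

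Which cells cycled was asked by gating each cell on markers of 19 classes. A class name was given to a cell with at least 3 of the class's markers and at most 0.5 times as high a share of any other class's markers, or under 3 of these. Cells that failed only this last condition were called mixed, and names are written as "-like". With no upper limit endothelial-like cells made up 41.8% to 57.5% of a library, microglia-like cells 1.2% to 3.58% and mature neuron-like cells 0.132% to 3.92%, so that neurons, a main cell of the labelled tissue, were scarce. In all, 189 of the 561 cycling cells were mixed and 17 had under 3 markers of every class. The values by class are given without the upper limit first, since the limit removed most cycling cells, and shares over under 50 cells are given with their counts.

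Endothelial-like cells, which line the vessels and were the largest class, cycled on day 1 and, among cells that passed the gate, hardly at any other time. Cycling were 0 of 5439 such cells in the sham library, which allows a share of up to 0.0552% by 3 over the number of cells, the limit used for each 0 here, 120 of 7034 on day 1 (1.71%, 1.42% to 2.04%), 3 of 6030 on day 3 (0.0498%) and 0 of 9604 on day 7 (up to 0.0312%). At 2000 UMIs per cell the day 1 share was 43 of 3515 (1.22%). Under the filter of the methods the number was 20 of 6494 on day 1 (0.308%, 0.188% to 0.475%) and 0 in the other libraries. Mixed cells are not in this class. Without the upper limit, at least 3 endothelial markers were held by 9 of 10 mixed cycling cells of the sham library and 76 of 121 on day 1. On days 3 and 7 these were 37 of 47 and 7 of 11.

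Microglia-like cells, the resident immune cells, had a higher cycling share. On day 1, 116 of 602 cycled (19.3%, 16.2% to 22.7%), and 50 of 406 at 2000 UMIs (12.3%). In the sham library the number was 1 of 125 (0.800%, 0.0203% to 4.38%). On day 3 it was 15 of 376 (3.99%, 2.25% to 6.49%; 4.63% at 2000 UMIs), and on day 7 it was 0 of 273, which allows up to 1.10%. Day 1 lay above the other 3 libraries beyond counting error, and day 3 above day 7 without the upper limit. Under the filter of the methods the numbers were 0 of 124, 52 of 484 (10.7%, 8.13% to 13.8%), 4 of 346 (1.16%, 0.316% to 2.93%) and 0 of 262 (up to 1.15%), so that day 3 and day 7 were not told apart. The sham value of this class rests on few cells.

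Neuroblast-like cells, named by markers of the young neurons that arise in the germinal zone along the lateral ventricle, cycled in each library when no upper limit was set. Further neuroblast genes were lower in the cycling cells of this class on day 1, as given below. The name therefore does not show that the cycling cells were young neurons. The numbers were 8 of 51 in the sham library (15.7%, 7.02% to 28.6%), 31 of 187 on day 1 (16.6%, 11.6% to 22.7%), 2 of 53 on day 3 (3.77%, 0.460% to 13%) and 13 of 59 on day 7 (22.0%, 12.3% to 34.7%). The 4 intervals overlapped, those of days 3 and 7 by the least. At 2000 UMIs per cell the shares were 6 of 44 in the sham library (13.6%), 24 of 141 on day 1 (17.0%), 2 of 51 on day 3 (3.92%) and 10 of 48 on day 7 (20.8%). With the filter of the methods the numbers were 1 of 42 in the sham library (2.38%), 18 of 173 on day 1 (10.4%), 0 of 51 on day 3 and 2 of 42 on day 7 (4.76%). Oligodendrocyte progenitor-like cells cycled in 3 of 89 cells of the sham library (3.37%) and in 10 of 186 on day 1 (5.38%, 2.61% to 9.66%). On days 3 and 7 they were under 50, with 2 of 30 and 1 of 47 cycling. With the upper limit 8 of 176 of these cells cycled on day 1, against 0 of 29, 0 of 17 and 0 of 27 in the sham library and on days 3 and 7. Cycling sham cells of this class were thus found only without the upper limit.

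Of the immune cells from the blood, T or NK-like cells cycled in 5 of 88 on day 7 (5.68%, 1.87% to 12.8%), 2 of 21 in the sham library, 0 of 22 on day 1 and 1 of 40 on day 3. Monocyte-like cells cycled in 3 of 12, 0 of 11, 2 of 11 and 2 of 13 in the sham library and on days 1, 3 and 7. Fibroblast-like cells cycled on day 1 in 5 of 169 (2.96%). These counts are small and their intervals wide.

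Classes that should not divide give the background of the rule. Among mature neuron-like cells, 0 of 660 cycled on day 1 without the upper limit. Among oligodendrocyte-like cells, 1 of 2399 did on day 1 (0.0417%, 0.00106% to 0.232%), at a median of 5064 UMIs, against 1998 in endothelial-like and 4661.5 in microglia-like cells of the same library. Choroid plexus-like cells, the deepest of these at a median of 17618 UMIs, had 2 of 672 on day 1 (0.298%, 0.0361% to 1.07%). Erythrocyte-like cells had 1 of 53 in the sham library (1.89%) and 1 of 22 on day 3. The part of depth in the shares of single classes was not tested beyond the thinned values. Pericyte-like and vascular smooth muscle-like cells had 0 cycling cells in each library, of 250 to 607 and of 473 to 1218 cells. Vessel cells can renew slowly, so these classes are no background of the rule. Their counts of 0 allow shares of up to 0.494% to 1.2% and up to 0.246% to 0.634%, by library. Pericyte-like cells were shallow, with medians from 1268 UMIs on day 1 to 2496 in the sham library. Shallow cells have fewer chances to meet the rule, so the 0 of this class does not show that division was absent.

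**Figure D3:**
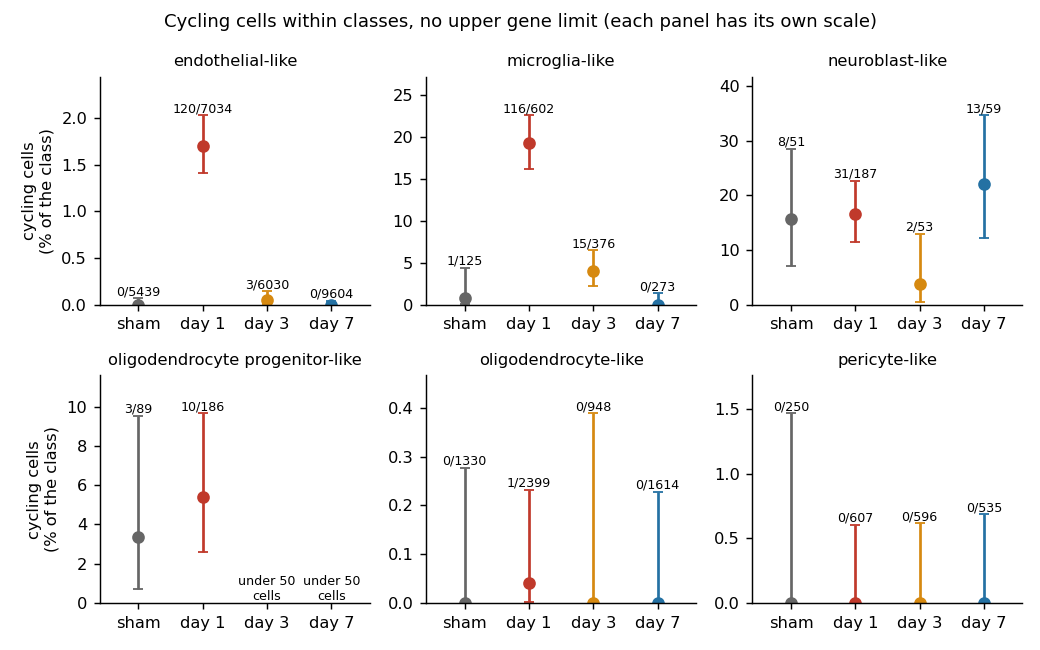
Cycling cells as a percentage of the class (vertical axes, each with its own scale) in the 4 libraries (horizontal axes), without the upper gene limit, for 6 classes. Bars are exact 95% intervals and the text gives cycling over all cells of the class. Endothelial-like and microglia-like cells peak on day 1 at 1.71% and 19.3%, whereas neuroblast-like cells cycled in each library at this setting.

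The make-up of the cycling cells is given without the upper limit first. On day 1, 28.6% of the 419 cycling cells were endothelial-like, 27.7% microglia-like and 7.40% neuroblast-like, while 121 (28.9%) were mixed. With the upper limit microglia-like cells were 43.3% of the 120 cycling cells of day 1, endothelial-like cells 16.7% and neuroblast-like cells 15% of them, so that the order differed. Of the 121 mixed cells without the limit, 76 had at least 3 markers of the endothelial class and 63 at least 3 of the microglial class. On day 3 the mixed cells were 47 of 75 (62.7%), of which 37 had at least 3 endothelial markers and 27 at least 3 of vascular smooth muscle. Of all 75 cycling cells of day 3, 15 were microglia-like and 20 held markers of 5 or more classes. With such cells left out, the cycling share of day 3 under the filter of the methods was 0.0979% in place of 0.181%, below the 0.107% of day 7. On day 7 the neuroblast-like class was the largest, with 13 of 37 cycling cells (35.1%), and in the sham library it held 8 of 30 (26.7%). With the upper limit 2 of the 15 cycling cells of day 7 were neuroblast-like and 4 T or NK-like.

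A mixed cell can be a droplet with a pair of cells. The doublet caller Scrublet, where it worked, marked 42 of the 419 cycling cells of day 1 and 1312 of 16828 cells in all (7.80%), 2 of 30 cycling cells of the sham library and 2 of 37 of day 7. It did not work on day 3, so that the part of doublets in that library was not tested.

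**Figure D4:**
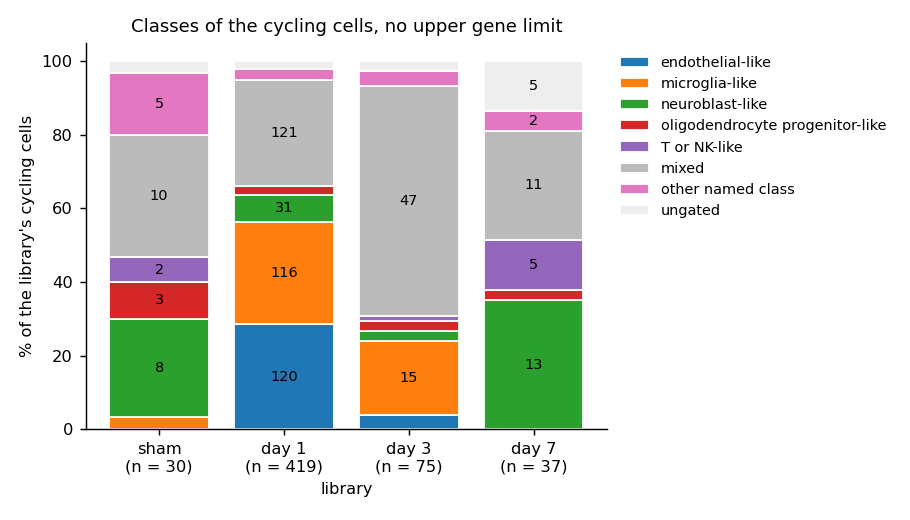
The classes of the cycling cells of each library (vertical axis, percent of its cycling cells, n under each bar on the horizontal axis), without the upper gene limit, with the number of cells written in each segment over 4%. Endothelial-like and microglia-like cells make up 28.6% and 27.7% on day 1, and neuroblast-like cells 35.1% on day 7.

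The levels of the genes within classes follow. Those of the 5 genes are tied to the cycling shares by the rule and are no separate support for them. In endothelial-like cells under the filter of the methods, the 5 genes stood at 1.90, 33.3, 1.80 and 1.86 CPM from sham to day 7. The day 1 ratio was 17.5 (12 to 26.4), while day 3 and day 7 were level with sham within their intervals. Without the upper limit the day 1 ratio was 108 (80.3 to 149) and that of day 3 was 7.22 (5.23 to 10.2). The sham class held 29 UMIs of the 5 genes with the limit and 44 without it. Of the other members, Cdk1 stood at 0.984 and 6.87 CPM in sham and on day 1 (ratio 6.98, 4.05 to 12.9). Pcna stood at 23.4, 32.9, 35.2 and 29.4 CPM and so was highest on day 3, with ratios of 1.40, 1.5 and 1.26. Mcm5 stood at 5.84, 9.24, 5.15 and 3.44 CPM, with a day 7 ratio of 0.589 (0.428 to 0.810). H2afz stood at 314, 534, 351 and 283 CPM. Of all 13482 genes tested in this class, 8.00% were 2-fold higher on day 1. Of the 10 genes 6 were, of the mitosis list 19 of 29 (median log2 ratio 1.33, against -0.05 over all genes) and of the replication list 6 of 25 (0.22). Fewer genes of both lists and fewer members met the filter on low counts on days 3 and 7. Some genes thus met it only through their UMIs of day 1, and the day 1 counts rest in part on these. On days 3 and 7, where 4.16% and 4.49% of all genes were 2-fold higher, 0 of 17 and 0 of 20 mitosis genes, 0 of 22 replication genes on either day, and 0 of 6 and 0 of 7 members with enough UMIs passed 2-fold. Of the mitosis genes 2 of 17 were 2-fold lower on day 3 and 1 of 20 on day 7. Of the members tested 0 were 2-fold lower on any day, against 3.85%, 4.99% and 2.16% of all genes on days 1, 3 and 7.

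In microglia-like cells under the filter of the methods, the 5 genes had 0 UMIs in the sham library. They stood at 554 CPM on day 1 (1113 UMIs), 65.4 on day 3 (77 UMIs) and 9.51 on day 7 (9 UMIs). Set against 3 sham UMIs, day 1 was at least 72.5-fold higher. Without the upper limit the sham class gained 1 cell, which was cycling and held 62 UMIs of the 5 genes, so that sham stood at 153 CPM and the day 1 ratio was 5.05 (3.93 to 6.60). This ratio thus turns on 1 sham cell. H2afz stood at 234, 1459, 360 and 312 CPM with the limit, a day 1 ratio of 6.23 (5.06 to 7.75), and the ratio was 6.26 without it. Pcna stood at 22.9, 73.1, 51.0 and 30.6 CPM, with ratios of 3.19 (1.64 to 7.12), 2.23 and 1.34. Of the 8044 genes tested in this class 13.3% were 2-fold higher on day 1. All of the 10 genes were, as were 31 of 32 mitosis genes (median log2 ratio 2.35, against -0.11 over all genes) and 17 of 21 replication genes (1.70). In the sham class the 5 genes, Mcm2, most of the mitosis genes and some of the replication genes had 0 UMIs. Such genes met the filter on low counts through day 1 alone, where they were high. Their ratios are to the floor of 3 UMIs. The day 1 counts and medians therefore rest in part on that floor and do not give the size of the rise. Most genes of the lists had too few UMIs on days 3 and 7, where 3 and 1 mitosis genes and 7 and 3 replication genes could be tested, against backgrounds of 8.37% and 7.33%. Of these, 1 and 0 mitosis genes and 3 and 1 replication genes were 2-fold higher. Of the 10 genes 3 could be tested on day 3 and 2 on day 7, of which 2 and 0 passed 2-fold, and 0 were lower on any day, against 15.2%, 4.57% and 4.36% of all genes on days 1, 3 and 7.

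The 5 genes were highest, over 34 combinations of a class and a library with at least 50 filtered cells, in neuroblast-like cells of day 1 (942 CPM, 861 to 1029). Microglia-like cells of day 1 (554 CPM), T or NK-like cells of day 7 (421 CPM) and oligodendrocyte progenitor-like cells of day 1 (254 CPM) followed, and the intervals of these 4 did not overlap. These intervals treat UMIs of the same cell as independent and are too narrow. The cycling cells of these 4 numbered 18, 52, 4 and 8, and the intervals of their cycling shares overlapped, so that the order is not settled. Erythrocyte-like cells of the sham library were the fifth at 236 CPM (188 to 292), which overlapped the interval before it (212 to 300). Microglia-like cells of day 3 (65.4), astrocyte-like cells of day 1 (62.6), endothelial-like cells of day 1 (33.3) and fibroblast-like cells of day 1 (32.9) came next. Microglia-like and choroid plexus-like cells of the sham library had 0 UMIs of the 5 genes. Neuroblast-like cells of the sham library and of day 7 had 42 filtered cells each and so were not ranked. The order was not made without the upper limit.

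In the erythrocyte-like cells most of this was Ube2c. In 51 such cells Ube2c had 63 of the 84 UMIs of the 5 genes, 177 CPM (136 to 226), which was 63 of the 109 Ube2c UMIs of the filtered sham library, and 23 of the 51 cells had one. A single cell of them met the rule for cycling. Mcm2, Mcm5 and Cdk1 had 0 UMIs there, which allows up to 8.42 CPM, and H2afz stood at 28.1 CPM. The ratios of Ube2c and Mki67 to sham over all cells contain these cells where not stated otherwise.

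The genes whose level most resembled that of the 5 genes over the 34 combinations were sought among 14314 genes. By Spearman correlation, a description over units that share libraries and depth, they were Cdca8 (0.73), Racgap1 (0.71), Ftl1-ps1 (0.69), Aurkb (0.68), Cdca3 (0.67), Pimreg (0.67), Ckap2l (0.66), Kcnab2 (0.65) and Hmmr (0.65). Of these Cdca8 and Aurkb encode partners of survivin in the chromosomal passenger complex, and Racgap1 acts in cytokinesis. Of the other members Mcm2 had rank 48 (0.53), Cdk1 253, Mcm5 445, H2afz 525 and Pcna 599. Each of these ranks lay below those of the genes just named.

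The members that the rule did not use differed in how many of their UMIs lay in cycling cells. For the 5 genes this share follows from the rule and is left out. With no upper limit, cycling cells of day 1 held 7.36% of all UMIs of the library but 77.5% of those of Cdk1. They held 46.5% of the UMIs of Mcm5, 34.7% of Mcm2, 32.2% of H2afz and 25.4% of Pcna. In the sham library, where cycling cells held 0.534% of all UMIs, they held 62.2% of those of Cdk1, 11.3% of Mcm5, 6.90% of H2afz and 2.57% of Pcna. For Pcna the day 7 share was 1.94%. Most Pcna and H2afz mRNA was thus outside the cells that the rule called cycling on every day. Dividing cells in which fewer than 3 of the 5 genes were found count among the other cells. In those other cells Pcna had 23.2 CPM in sham, 35.9 on day 1, 33.1 on day 3 and 30.9 on day 7, with the sham interval (22.2 to 24.3) below the rest.

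The remaining members were then compared between cycling cells and the other cells of the same class and library. The cells were chosen by the 5 genes, so the levels of these are no finding, and the comparison is within 1 library. Depth differs strongly between both sides, so ratios for endothelial-like and microglia-like cells of day 1 are followed by those among cells with over 3000 genes, an alternative added after the data were seen. In endothelial-like cells of day 1, 120 cycling cells were set against 6914 others (100 against 440 with over 3000 genes, at medians of 23672 and 13083.5 UMIs). Cdk1 stood at 251 against 5.99 CPM, a ratio of 42.0 (25.5 among the deep cells). H2afz stood at 3004 against 553 CPM (5.44, then 4.56), and Pcna at 171 against 34.5 CPM (4.95, then 4.18). For Mcm5 and Mcm2 the ratios were 8.6 (then 5.00) and 5.37 (then 3.84). All 5 were higher in cycling cells under either comparison.

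In microglia-like cells of day 1, 116 cycling cells were set against 486 others, or 64 against 54 deep cells with like medians of 18184 and 18776 UMIs. The ratio was 5.68 for Cdk1 (5.90 among deep cells), 2.28 for H2afz (1.96) and 2.16 for Pcna (1.68). For Mcm2 it was 1.97 (1.28, 0.814 to 2.04) and for Mcm5 1.89 (1.27, 0.910 to 1.79), so that among deep cells the intervals of both MCM genes held 1. The other microglia-like cells of day 1 were not free of the 5 genes, with Birc5 in 24.3% of them, whereas 1.06% of the other endothelial-like cells had a Birc5 UMI. In neuroblast-like cells of day 1 the ratios for 31 cycling cells against 156 others were 45 for Cdk1, 5.30 for Pcna, 4.74 for H2afz, 2.70 for Mcm5 and 2.35 for Mcm2. Only 1 of the other cells had over 3000 genes, so the part of depth could not be shown there.

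**Figure D5:**
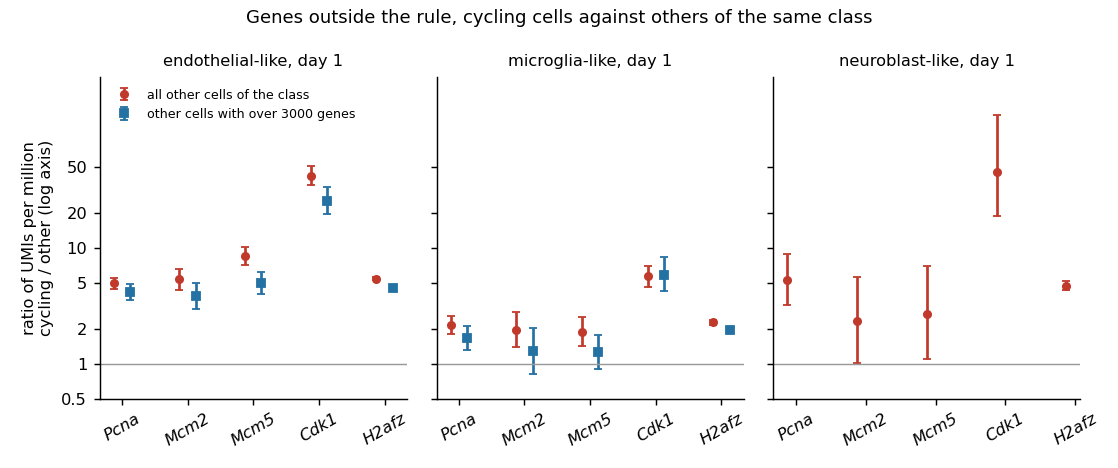
The ratio of CPM in cycling cells to that in other cells of the same class (vertical log axis) for the 5 members that the rule did not use (horizontal axis), in 3 classes of day 1 without the upper gene limit. Red circles are against all other cells of the class and blue squares among cells with over 3000 genes, with exact 95% intervals as bars. Squares are left out where fewer than 5 other cells were left. Cdk1 has the highest ratio in each class, at 42.0, 5.68 and 45.

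The lists were compared in the same way. The cells were chosen by genes of division, so a higher mitosis list follows in part from the rule and is a description. In cycling endothelial-like cells of day 1, the 32 mitosis genes had a summed level of 3010 CPM, against 141 CPM in the other cells (21.3-fold, 17.2-fold among deep cells). The 25 replication genes together stood 6.67-fold higher (then 5.12-fold). Among them Rrm2 stood at 104 against 1.35 CPM, Dut at 276 against 34.2 and Tyms at 148 against 17.1, while of the mitosis list Cks2 stood at 286 against 11.6, Cks1b at 292 against 14.2 and Cenpa at 146 against 9.68. The brakes summed to 793 against 1847 CPM (0.430-fold, then 0.517-fold), with Btg2 at 102 against 506 CPM, Cdkn1a at 180 against 378 and Btg1 at 65.2 against 157. Ccnd1 and Cdk4 were 2.0-fold and 2.58-fold and Ccnd2 0.249-fold. In microglia-like cells of day 1 the mitosis list was 6.27-fold (7.93-fold among deep cells) and the replication list 2.31-fold (1.97-fold). There Cdkn1a was level (1.06, 0.963 to 1.17), while Btg1 and Btg2 were 0.543-fold and 0.701-fold. In the 15 cycling microglia-like cells of day 3 the mitosis list was 48.2-fold (41.5-fold among deep cells), the replication list 7.30-fold (11.8-fold) and H2afz 8.06-fold (6.13-fold). In neuroblast-like cells the brakes were level on day 1 (1.01, 0.901 to 1.13) and 1.31-fold on day 7, and Ccnd2, at 2227 against 1234 CPM on day 1, was 1.81-fold.

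The identity of the cycling cells was checked with markers that the gate did not use. In cycling endothelial-like cells of day 1, 5 further endothelial genes (Cdh5, Emcn, Egfl7, Esam and Slco1a4) summed to 2748 CPM against 6519 CPM in the others, 0.422-fold (0.622-fold among deep cells). Each of these genes had a UMI in at least 94.2% of the cycling cells. Without a background share from other classes, this detection does not show identity. The sum of 5 further microglial genes (Cx3cr1, Csf1r, Trem2, Ctss and Tyrobp) was 10.3 CPM there, against 62.2 CPM in the other endothelial-like cells. Markers of the venous wall (Nr2f2, Slc38a5 and Ackr1) summed to 664 against 359 CPM (1.85-fold, 1.24-fold among deep cells). Those of arteries (Bmx, Gkn3 and Sema3g) were 0.0908-fold (0.271 among deep cells) and those of capillaries (Mfsd2a, Spock2 and Rgcc) 0.103-fold (0.259). Of the venous genes, Ackr1 stood at 339 against 70.6 CPM, whereas Slc38a5 was level at 239 against 224. Markers of angiogenic tip cells (Apln, Esm1 and Angpt2) were 1.45-fold over all cells and 0.867-fold among deep cells, so that their direction turned. In cycling microglia-like cells of day 1 the 5 further microglial genes were 0.866-fold (1.06 among deep cells), and 4 injury-associated genes (Spp1, Lpl, Apoe and Cst7) were 0.554-fold (0.593). Apoe stood at 3021 against 6718 CPM. Cycling neuroblast-like cells of day 1 had 0.384 times the level of 5 further neuroblast genes (Dlx5, Sp9, Tubb3, Dlx6os1 and Nrxn3). These second markers were chosen with the data in view.

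The mix of the genes within cycling cells is given by class, first without the upper limit. The replication member Mcm5 had a UMI in 80.8% of the cycling endothelial-like cells of day 1, against 46.6% of the microglia-like and 35.5% of the neuroblast-like cells. For Mcm2 the shares were 56.7%, 33.6% and 29.0%, and for Pcna 80.0%, 62.9% and 64.5%. Cdk1 was found in 92.5%, 81.9% and 90.3%. In filtered cells the cycling cells with a Mcm5 UMI were 9 of 20, 13 of 52 and 5 of 18 in the same order, those with Mcm2 4, 10 and 3, and those with Pcna 10, 21 and 9, and for each gene the intervals of the classes overlapped. Without the limit the median depth of these cells was 17814, 12986.5 and 7937 UMIs in the same order, so that depth falls with the shares of Mcm5 and Mcm2, and its part was not tested. Of the UMIs of the 5 genes, Cenpf made up 9.75% in cycling endothelial-like cells, 11.2% in microglia-like and 17.5% in neuroblast-like cells of day 1. In filtered cells the shares of Cenpf were 13.5%, 12.7% and 17.7%, so that endothelial-like and microglia-like cells changed places. Birc5 made up 30.1%, 28.7% and 16.6% without the limit, and 25.7%, 30.7% and 21.9% in filtered cells. These shares come from the genes that chose the cells and from UMIs that few cells can dominate, so they are a description. Levels are not compared between genes here, as the counts are not per length.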

How the data were processed

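The authors deposited 10× matrices of whole-number UMI counts for 4 libraries (sham and tMCAO days 1, 3 and 7), 1 library per group, with gene and barcode lists. The file headers name Cell Ranger 4.0.0, whereas the submitters' processing notes name Cell Ranger 3.0.1, Seurat 4.1.2 and GRCh38, although the gene identifiers are those of mouse. Counts were used as deposited, and the number of per-sample columns left unused was 0. As in the study's methods, cells needed 200 to 3000 genes and a mitochondrial share up to 10%, which left 44360 cells, and the shares, levels and list counts were repeated without the upper limit, on 55279 cells. The number of cells that the study states after filtering lies between these and nearer to the latter. The correlations and the order of classes by level used filtered cells only.

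Cells were gated into 19 classes. The class with the highest share of its markers detected, and at least 3 of them, named the cell. A cell was mixed when the next class also had at least 3 markers and over 0.5 times that share. Levels are sums of UMIs per 1000000 UMIs (CPM). Shares carry Clopper-Pearson intervals, levels exact Poisson intervals and ratios exact conditional intervals, each at 95%, and a sum of 0 was set to a floor of 3 UMIs per library in ratios. UMIs remove amplification copies but the intervals do not cover differences between mice. In the comparisons of lists, genes with at least 20 UMIs over both libraries were tested against a 2-fold threshold on these sums, which is a rule of size and gives no p-value. The lists held 25 replication genes, 32 mitosis genes, 10 G1 cyclins and kinases and 13 brakes. Named were the 10 members, from each list the 3 genes with the most UMIs in cycling cells, and the 10 genes most like the summed 5 genes by Spearman correlation, among genes with at least 100 UMIs, over classes with at least 50 cells in a library. Of the latter, 1 is not reported here. Other genes named in the comparison of cell identities were chosen after their values were seen. Clusters, used for an alternative gate, came from 2000 variable genes without cell-cycle genes, 30 principal components and 20 neighbours. Doublets were kept, and Scrublet was an alternative. With the upper limit its automatic threshold marked under 0.5% of the sham, day 3 and day 7 cells, and 0 cells of day 3 without it, and was not used there.

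On simulated counts with 200 genes changed 3-fold or 4-fold, the 2-fold rule recovered 99.5%, 100% and 98.5% over all cells for days 1, 3 and 7, 99.5%, 98.0% and 100% in endothelial-like and 98.5%, 97.5% and 98.0% in microglia-like cells. It also called 0.860%, 0.771% and 0.657%, 0.947%, 0.802% and 0.852%, and 6.79%, 5.35% and 4.96% of the unchanged genes in the same order. The changed genes were drawn only from genes with at least 20 sham UMIs, and the counts were Poisson, without clumping of UMIs in single cells. The recovery therefore does not cover genes with fewer sham UMIs, such as the 5 genes in microglia-like cells. The members and lists were chosen with earlier results of these data known. Gene coordinates are from GENCODE vM21 (GRCm38). Python 3.11.15, numpy 2.4.6, pandas 2.3.3, scipy 1.17.1, scanpy 1.11.5, scikit-learn 1.9.0 and matplotlib 3.10.9 were used.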

Additional observations from a re-analysis of the deposited data

Results flagged for a closer look

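H2afz differed in direction between classes on day 7. Under the filter of the methods its ratio to sham was 1.33 (1.05 to 1.70) in microglia-like cells and 0.896 (0.834 to 0.963) in oligodendrocyte-like cells, with 1 library per group. Of 6 classes that could be compared, 1 lay above sham and 2 below it beyond counting error. The difference between the classes was not tested. Without the upper gene limit the ratio in microglia-like cells was 1.09 (0.890 to 1.35), so that its interval held 1.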

How the results depend on the processing

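No paired analysis was possible because each group had 1 library, and for the same reason no library could be left out. For the cycling share in sham and on days 1, 3 and 7, no upper limit gave 0.288%, 2.49%, 0.661% and 0.222%, a limit of 6000 genes 0.294%, 2.32%, 0.628% and 0.205%, and no filter on cells 0.255%, 2.43%, 0.643% and 0.206%. Asking for 2 of the 5 genes gave 1.70%, 0.395% and 0.185% on days 1, 3 and 7, and asking for 4 gave 0.598% on day 1. Thinning to 1000 UMIs gave 0.0149%, 0.294%, 0.0594% and 0.0670% for sham and days 1, 3 and 7. Thinning to 2000 gave 0% for sham and 0.674% on day 1.

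Thinning, doublet removal and the class of the cluster without the upper limit, and leaving out cells of 5 or more classes, were chosen after seeing the data. Without the upper limit, thinning to 2000 UMIs gave 0.244%, 1.47%, 0.445% and 0.237%, and leaving out Scrublet doublets gave 0.278%, 2.43% and 0.225% for sham and days 1 and 7. Leaving out cells of 5 or more classes gave 0.0979% on day 3, below the 0.107% of day 7. Day 1 had the highest share under each of these settings, except that doublet removal gave no value for day 3. For day 1 endothelial-like cells, no upper limit gave 1.71%, with thinning 1.22%, with the class of the cluster 1.86% and without doublets 1.71%. For microglia-like cells of day 1 the values were 19.3%, 12.3% (thinned), 17.6% (cluster) and 19.5% (doublets), and for those of day 3 they were 3.99%, 4.63% (thinned) and 4.39% (cluster). For neuroblast-like cells of day 1 they were 16.6%, 17.0% (thinned), 17.4% (cluster) and 16.6% (doublets).

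The 5 genes over sham had a day 1 ratio of 5.96 without the upper limit and 7.38 as a mean over cells, and a day 7 ratio of 1.17 without the limit. Leaving out erythrocyte-like cells, also chosen after seeing the data, gave 13.3, 2.47 and 2.31 on days 1, 3 and 7, and moved Ube2c on day 7 from 0.878, whose interval held 1, to 1.70. Birc5 on day 7 reversed, from 2.43 to 0.808 without the limit. The cause was not tested. Without the limit 11 replication genes were 2-fold higher on day 1 and 0 on day 7, and 3 and 0 mitosis genes on days 3 and 7. With at least 100 UMIs, or with 1 CPM added and no filter on low counts, 0 replication genes were 2-fold higher on days 3 and 7 and 0 mitosis genes on day 3. On day 7 these gave 1 and 0 mitosis genes. Among the main results 61 values moved and 49 stayed within the interval of the reported value (counts within 1.5 times), and among single genes 31 moved and 61 stayed. Among those that moved, Mki67 on day 3 went from 1.34, whose interval held 1, to 0.616 as a mean over cells. Depth limited the sham microglia-like cells, with 124 filtered cells and 0 UMIs of the 5 genes, and days 3 and 7 of that class, where most list genes had under 20 UMIs.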
